A study of Mus musculus with 12 samples.

Results

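The Wnt ligands, their receptors and their modulators were examined in whole mouse lung RNA. The genes were chosen by a rule on names that was set with earlier results of these data known. It took every protein-coding gene of the deposited table whose symbol begins with Wnt, Fzd, Sfrp, Dkk or Rspo and a digit, with Axin2, Lef1, Lrp5, Lrp6 and Nkd1 added. The rule found 45 of the 35599 genes in the table, of which 18912 are protein-coding. They were 19 Wnt ligands, 10 Frizzled receptors (Fzd), 2 LRP co-receptors, 4 secreted Frizzled-related proteins (Sfrp), 3 Dickkopf proteins (Dkk), 4 R-spondins (Rspo) and 3 feedback and target genes. The 12 libraries fell into 3 groups of 4. The saline group was the control. The AE-PF group had been given bleomycin and lipopolysaccharide (LPS) to model an acute exacerbation of pulmonary fibrosis and had no further treatment. The ND-RHL group had the same challenge and was then treated with liposomes that held nintedanib and dexamethasone and bore hyaluronic acid and RGD peptides on their surface. Nintedanib inhibits receptor tyrosine kinases and dexamethasone is a glucocorticoid. No group received empty liposomes or either drug alone, so what the carrier and each drug contributed cannot be told apart. Strain, sex, age and doses are not given in the labels. The labels do not say that the libraries of a group came from separate animals, so the p-values measure the spread between these libraries, part of which may be technical. AE-PF libraries 3 and 4 were far more alike than any other pair within a group. Their distance, a chi-square per degree of freedom, was 3.31, against 9.04 to 74.05 for the other pairs. Whether AE-PF 3 and 4 are independent was not tested, and every fit counts them as separate.

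Wnt proteins are secreted, lipid-bearing ligands that bind Frizzled receptors. With LRP5 or LRP6 as co-receptor they stop the destruction complex from degrading β-catenin, which then joins Tcf and Lef proteins on DNA and turns on genes such as Axin2 and Nkd1 that damp the pathway in return. Other Wnts act without β-catenin, through the co-receptor ROR2 or the planar cell polarity proteins. SFRP proteins bind Wnts outside the cell, DKK1 and DKK2 bind LRP5 and LRP6, and R-spondins keep receptors at the cell surface. In the lung the pathway is known for its part in lung formation and in the upkeep of alveolar type 2 cells, and it has been widely studied in fibrosis.

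The 3 feedback and target genes are read as products of β-catenin acting with Tcf and Lef proteins, so the promoters were searched for the letters these proteins recognise. RefSeq promoters of the GRCm38.p6 build were found for 30 of the 45 genes, with 36 start sites, and the 250 bases before each start were read on both strands. The letters CTTTGAT stood in 2 of 36 windows (5.56%) and in 3.21% of all 32851 promoters. CTTTGTT also stood in 2 of 36 windows, against 5.03% of all promoters. The shorter CTTTGA, which is part of CTTTGAT, stood in 5 of 36 windows (13.9%) and in 13.8% of all. The 6 windows of Axin2, Lef1 and Nkd1 were mostly Lef1's, and some of those overlapped. These windows held CTTTGAT in 0, CTTTGTT in 0 and CTTTGA in 1. The shares among these genes were thus close to the shares among all promoters, and no match says only that these letters are not in this window. A set of 4 windows is printed 5′ to 3′ on the gene's strand: those of Axin2 and Nkd1, which were lower in AE-PF lungs and hold none of the 3 motifs, and those of Fzd7 and Wnt5b, which hold a match (capitals). In Fzd7 the capitals are CTTTGTT read on the opposite strand, beginning 130 bases before the start. In Wnt5b they are CTTTGAT on the gene's own strand, beginning 71 bases before the start, and the window belongs to 1 of its 3 start sites. The Nkd1 and Wnt5b windows lie inside the longer genes of the GENCODE annotation.
Axin2, chr11:108920099-108920348, plus strand: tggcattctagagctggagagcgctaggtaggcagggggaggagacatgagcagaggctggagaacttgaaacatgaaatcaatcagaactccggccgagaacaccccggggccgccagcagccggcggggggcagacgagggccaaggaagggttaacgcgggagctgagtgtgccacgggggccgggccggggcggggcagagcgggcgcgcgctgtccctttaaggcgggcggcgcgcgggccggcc
Nkd1, chr8:88527383-88527632, plus strand: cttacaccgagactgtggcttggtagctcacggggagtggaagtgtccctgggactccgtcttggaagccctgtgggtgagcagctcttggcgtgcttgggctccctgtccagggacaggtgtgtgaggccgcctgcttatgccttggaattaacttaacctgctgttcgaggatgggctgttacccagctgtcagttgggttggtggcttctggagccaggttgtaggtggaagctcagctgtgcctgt
Fzd7, chr1:59481897-59482146, plus strand: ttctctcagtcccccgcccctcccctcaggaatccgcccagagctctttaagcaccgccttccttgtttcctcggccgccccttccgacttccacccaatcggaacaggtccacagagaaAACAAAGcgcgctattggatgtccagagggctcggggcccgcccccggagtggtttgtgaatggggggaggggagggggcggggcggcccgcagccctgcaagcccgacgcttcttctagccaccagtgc
Wnt5b, chr6:119449387-119449636, minus strand: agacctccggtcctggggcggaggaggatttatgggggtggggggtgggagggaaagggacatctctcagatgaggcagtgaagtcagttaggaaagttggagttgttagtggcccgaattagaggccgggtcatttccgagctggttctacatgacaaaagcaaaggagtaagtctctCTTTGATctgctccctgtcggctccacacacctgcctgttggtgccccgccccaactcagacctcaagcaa

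Depth was similar between the groups. The libraries held 16152379 to 21667129 counted fragments, and 14052 to 15020 genes reached 1 FPKM (fragments per kilobase of gene, scaled to the library's total) in a library. Markers of the labelled tissue were present: the summed FPKM of 8 alveolar type 2 cell markers, the cells that make surfactant, was 13448 to 16977 in saline, 1560 to 5160 in AE-PF and 9949 to 17816 in ND-RHL libraries. AE-PF library 2 and ND-RHL library 4 stood apart in genes of other tissues: they had summed FPKM of 1862 and 6292 for 8 squamous epithelium markers, against at most 48.3 elsewhere, and of 693 and 1674 for 7 skeletal muscle markers, against at most 129.7 elsewhere. Where leaving out both libraries together changed a call, the value without them is given with the result or in the comparison of ND-RHL with saline. In bulk RNA, fewer cells of a type and less RNA per cell cannot be told apart.

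A gene was tested if its FPKM reached 1 in at least 4 libraries, which 31 of the 45 genes did, among 15164 genes in all. The test was limma on log2(FPKM + 1), with an adjusted p (Benjamini-Hochberg over all 15164 genes) under 0.05 as the threshold. Changes are log2 differences on that scale, which understates changes of low genes, and their standard errors come from the fit over all 12 libraries. For 5 of the 31 genes the mean was under 1 in at least 1 group, so they passed the filter through the groups where they were higher. Dkk2 and Wnt10a did so through AE-PF with 2 and 1 ND-RHL libraries, and Wnt2b, Lef1 and Sfrp5 through saline and ND-RHL libraries.

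In AE-PF against saline lungs, 10 of the 31 tested genes were higher, 15 were lower and 6 did not pass. This is 80.6% of the genes tested, against 56.6% of all genes called in either direction, 26.4% called higher and 30.2% called lower. Their median log2 change was -0.25, against -0.03 over all genes. A change of at least 1.5-fold was called for 15 of 31 genes (48.4%), 7 higher and 8 lower, against 22.8% of all genes. These 15 include Dkk2, Wnt10a, Wnt2b and Sfrp5, which passed the filter through the groups where they were higher. Of the 26 genes with a mean of at least 1 in every group, 8 were higher and 12 lower. When libraries were scaled to equal FPKM totals, 11 were higher and 12 lower. That scaling put the all-gene median at 0.08 in place of -0.03 and the calls over all genes at 5376 higher and 3163 lower in place of 4003 and 4575.

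In ND-RHL against AE-PF lungs, which shares the AE-PF libraries with the first comparison, 13 of the 31 genes were higher, 10 were lower and 8 did not pass. The share was 74.2%, against 41.8% of all genes, 24.3% called higher and 17.4% called lower. The median log2 change was 0.17, against 0.06 over all genes, and 9 of 31 genes (29.0%, 4 higher and 5 lower) changed by at least 1.5-fold, against 14.3% of all. These 9 include Dkk2 and Wnt10a, which passed the filter through the groups where they were higher. Of the 26 genes with a mean of at least 1 in every group, 11 were higher and 8 lower. With equal FPKM totals 10 genes were higher and 10 lower, and the calls over all genes turned from 3686 higher and 2646 lower to 2359 higher and 3874 lower, with a median of -0.04. In ND-RHL against saline lungs, 8 of the 31 genes (25.8%) passed, 3 higher (Fzd6, Sfrp1 and Sfrp2) and 5 lower (Axin2, Fzd3, Fzd5, Lrp5 and Nkd1). That share lies near the 21.9% of all genes, of which 13.3% were higher and 8.65% lower. Only Sfrp1 and Sfrp2 (6.45%) passed with at least 1.5-fold, against 5.89% of all.

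**Figure D1:**
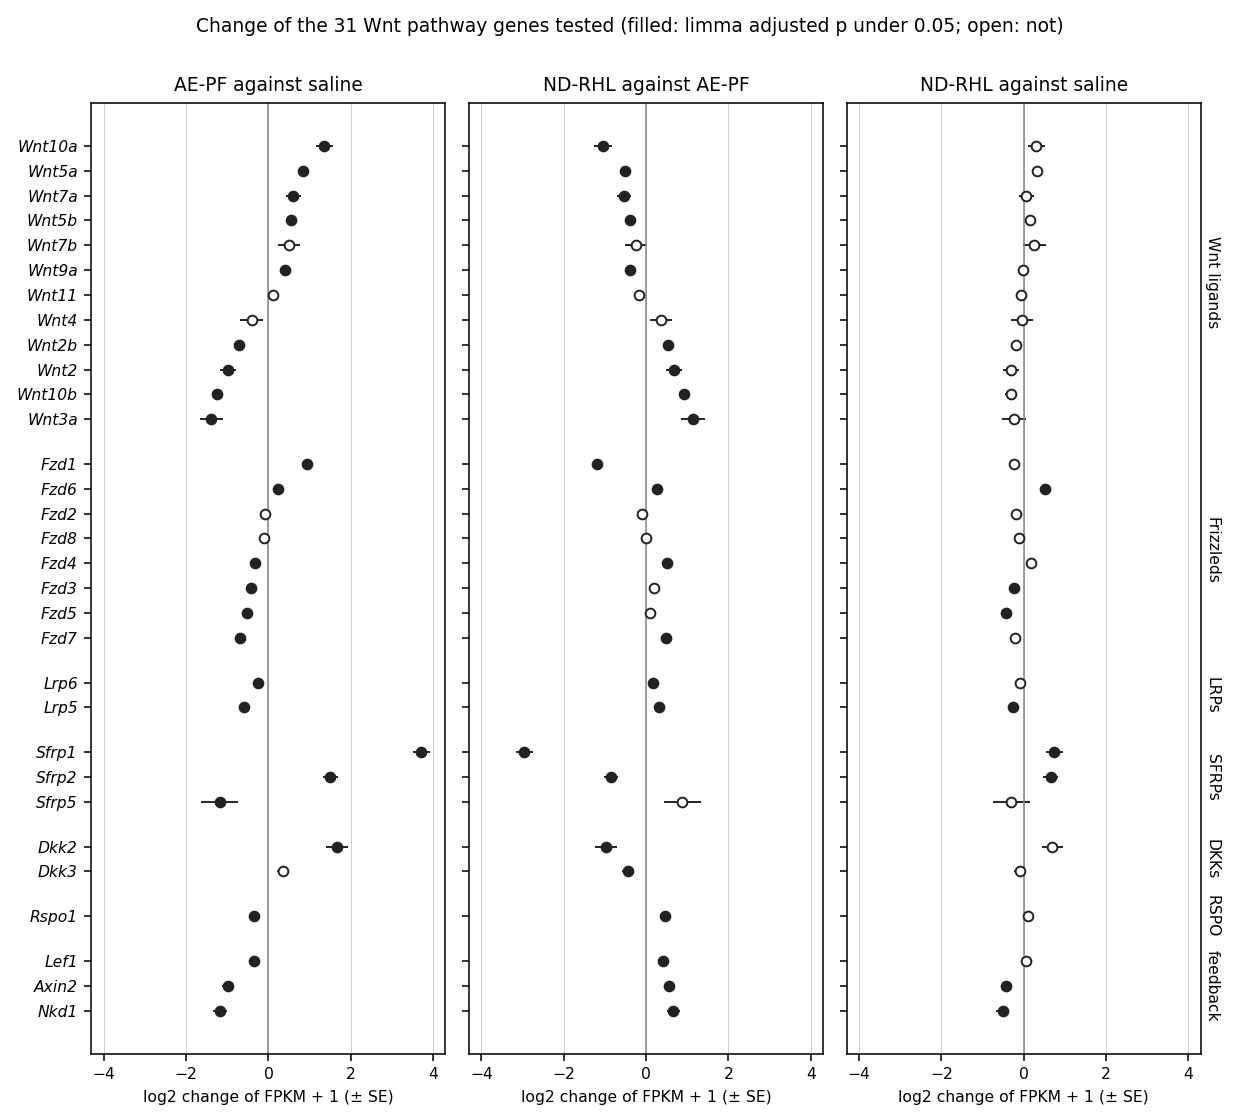
Log2 change (on log2(FPKM + 1), with standard error) of the 31 tested Wnt pathway genes in the 3 comparisons, filled where the limma adjusted p was under 0.05 and open where it was not. Sfrp1 has the largest change among them in AE-PF against saline, at 3.71, and most points of ND-RHL against saline are open and near 0.

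Of the 12 ligands tested, 5 were higher and 4 lower in AE-PF than in saline lungs, against 26.4% and 30.2% of all genes. Wnt3a, the ligand most used to switch on β-catenin signalling in culture, had an FPKM of 6.54, 7.41, 6.31 and 6.16 in saline libraries 1 to 4, 1.36, 0.541, 3.42 and 3.42 in AE-PF and 5.05, 6.82, 5.66 and 4.37 in ND-RHL libraries. All AE-PF libraries lay below all others, and AE-PF library 2 was the lowest. By limma the log2 change was -1.38 ± 0.29 (SE, adjusted p = 0.00181) against saline and 1.14 ± 0.29 (SE, adjusted p = 0.00907) for ND-RHL against AE-PF. Wnt10b, a β-catenin ligand known for its roles in bone and fat, had 5.16, 6.11, 4.93 and 4.26 in saline, 1.14, 1.53, 1.67 and 1.998 in AE-PF and 3.97, 3.68, 4.96 and 3.06 in ND-RHL libraries. Its AE-PF values were again below every other library, while saline and ND-RHL values overlapped. It fell by 1.24 on the log2 scale (adjusted p = 2.35e-05) and was higher by 0.92 in ND-RHL against AE-PF lungs (adjusted p = 0.000445).

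Wnt2 and Wnt2b are a pair of ligands that together are needed for lung formation in the embryo. Wnt2 had an FPKM of 8.19, 7.82, 8.84 and 7.32 in saline, 2.24, 3.12, 5.27 and 4.31 in AE-PF and 4.68, 6.34, 8.41 and 6.45 in ND-RHL libraries. Saline and AE-PF values did not overlap, while ND-RHL library 1 lay below AE-PF library 3. This was a log2 change of -0.98 ± 0.19 (SE, adjusted p = 0.00134) in AE-PF against saline and 0.68 ± 0.19 (SE, adjusted p = 0.0164) in ND-RHL against AE-PF. The latter call was lost without ND-RHL library 3 (adjusted p = 0.0501) and with both libraries that stood apart left out (0.62, adjusted p = 0.0639). Wnt2b had 1.47, 1.84, 1.83 and 1.78 in saline, 0.657, 0.751, 0.7595 and 0.487 in AE-PF and 1.56, 1.11, 1.47 and 1.44 in ND-RHL libraries. Every AE-PF library was below 1 and every other library was above it. Wnt2b fell by 0.71 on the log2 scale (adjusted p = 5.69e-05) and was higher by 0.52 in ND-RHL against AE-PF lungs (adjusted p = 0.00102).

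The 5 ligands that were higher in AE-PF lungs were Wnt5a, Wnt5b, Wnt7a, Wnt9a and Wnt10a. Wnt5a, the best known ligand of the route without β-catenin, had an FPKM of 3.103, 3.23, 2.51 and 2.83 in saline, 6.08, 5.62, 6.16 and 6.12 in AE-PF and 4.54, 4.88, 3.16 and 3.31 in ND-RHL libraries. All 4 AE-PF libraries exceeded all others, and saline and ND-RHL values overlapped. The log2 change was 0.84 ± 0.11 (SE, adjusted p = 8.46e-05) against saline and -0.51 ± 0.11 (SE, adjusted p = 0.00408) for ND-RHL against AE-PF. Its near relative Wnt5b had a mean ± SD of 1.26 ± 0.196 in saline, 2.31 ± 0.0851 in AE-PF and 1.51 ± 0.1702 in ND-RHL (n = 4 each), and rose by 0.56 (adjusted p = 0.000138). Against AE-PF, ND-RHL lungs had a log2 change of -0.40 (adjusted p = 0.00244).

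Wnt10a, a β-catenin ligand known from teeth, hair and skin, was close to undetected in saline lungs. It had an FPKM of 0.0935, 0.0219, 0.0603 and 0.0248 in saline, 1.83, 1.91, 1.89 and 1.16 in AE-PF and 0.08902, 0.176, 0.0209 and 1.16 in ND-RHL libraries. These values stand for 5, 1, 3 and 1 fragments in saline, 77, 85, 79 and 52 in AE-PF and 4, 7, 1 and 50 in ND-RHL libraries. ND-RHL library 4 matched AE-PF library 4, and the other 3 ND-RHL libraries were near the saline range. By limma the log2 change was 1.35 ± 0.21 (SE, adjusted p = 0.000252) against saline and -1.05 ± 0.21 (SE, adjusted p = 0.00256) for ND-RHL against AE-PF. On recovered fragments, limma-voom put the first change at 4.91 ± 0.87 (SE, adjusted p = 0.000599). ND-RHL library 4 is the library with the highest squamous and skeletal muscle marker sums, whose part in its Wnt10a level was not tested.

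Wnt7a and Wnt9a, known for limb and joint patterning, moved the same way in AE-PF lungs. Wnt7a had an FPKM of 4.12, 4.37, 3.99 and 3.82 in saline, 9.08, 5.29, 6.74 and 6.18 in AE-PF and 3.9997, 5.97, 5.09 and 2.75 in ND-RHL libraries. AE-PF values were above all saline values and overlapped those of ND-RHL, where library 2 reached 5.97. This was a log2 change of 0.60 ± 0.18 (SE, adjusted p = 0.0144) against saline. Against AE-PF, ND-RHL was lower (-0.54 ± 0.18 (SE, adjusted p = 0.0342)), a call lost without AE-PF library 1 (adjusted p = 0.101) or 3 (0.0597) and without ND-RHL library 1 (0.0757) or 4 (0.073). Wnt9a had means of 3.25 ± 0.108, 4.59 ± 0.649 and 3.24 ± 0.5398 in saline, AE-PF and ND-RHL, with log2 changes of 0.39 (adjusted p = 0.00606) and -0.40 (adjusted p = 0.00822).

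The other 3 tested ligands did not pass in any comparison. Wnt11, a ligand of cell movement in the embryo, averaged 3.37, 3.69 and 3.18 FPKM in saline, AE-PF and ND-RHL lungs. Wnt4, a ligand of kidney and reproductive tract development, had 6.32, 7.398, 6.43 and 6.25 in saline, 4.15, 6.22, 4.54 and 4.14 in AE-PF and 4.74, 4.96, 4.68 and 14.1 in ND-RHL libraries. ND-RHL library 4 was far above the rest, and the AE-PF values lay below all saline values. Wnt4 differed by -0.41 ± 0.27 (SE, adjusted p = 0.215) in AE-PF against saline. With AE-PF 2 and ND-RHL 4 both left out it was lower in AE-PF (-0.53, adjusted p = 9.89e-05) and in ND-RHL (-0.39, adjusted p = 0.00307) than in saline lungs. Without ND-RHL library 4 alone, the AE-PF difference had an adjusted p of 0.00608.

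Wnt7b, a ligand of the embryonic lung epithelium, showed the same library. Its FPKM was 1.998, 1.82, 2.05 and 2.597 in saline, 3.41, 4.101, 3.04 and 3.07 in AE-PF and 2.39, 2.14, 1.37 and 6.502 in ND-RHL libraries. AE-PF exceeded saline in every library, and ND-RHL library 4 exceeded all. The difference from saline was 0.50 ± 0.28 (SE, adjusted p = 0.143). Without ND-RHL library 4 it passed (adjusted p = 0.00645), as did ND-RHL against AE-PF (-0.58, adjusted p = 0.00717). With AE-PF 2 and ND-RHL 4 both left out these also passed, at 0.43 (adjusted p = 0.0169) and -0.51 (adjusted p = 0.0156). The squamous marker sum is high in the same library and its part in Wnt4 and Wnt7b was not tested.

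The summed FPKM of the 19 ligands differed little between groups while its make-up differed. The sum was 45.6 ± 2.34 (SD, n = 4) in saline, 42.4 ± 1.118 in AE-PF and 44.7 ± 4.93 in ND-RHL lungs, and the ranges of the groups overlapped. Wnt2, Wnt3a, Wnt10b and Wnt2b made up 17.6%, 14.4%, 11.2% and 3.79% of it in saline, and 8.76%, 5.10%, 3.73% and 1.56% in AE-PF lungs. Wnt7a, Wnt5a, Wnt9a and Wnt5b made up 8.92%, 6.39%, 7.13% and 2.75% in saline and 16.1%, 14.1%, 10.9% and 5.44% in AE-PF lungs. In ND-RHL lungs the first 4 were at 14.6%, 12.4%, 8.94% and 3.15%, and the second 4 at 10.2%, 9.02%, 7.37% and 3.39%. These shares are a description of the same values as the tests above.

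**Figure D2:**
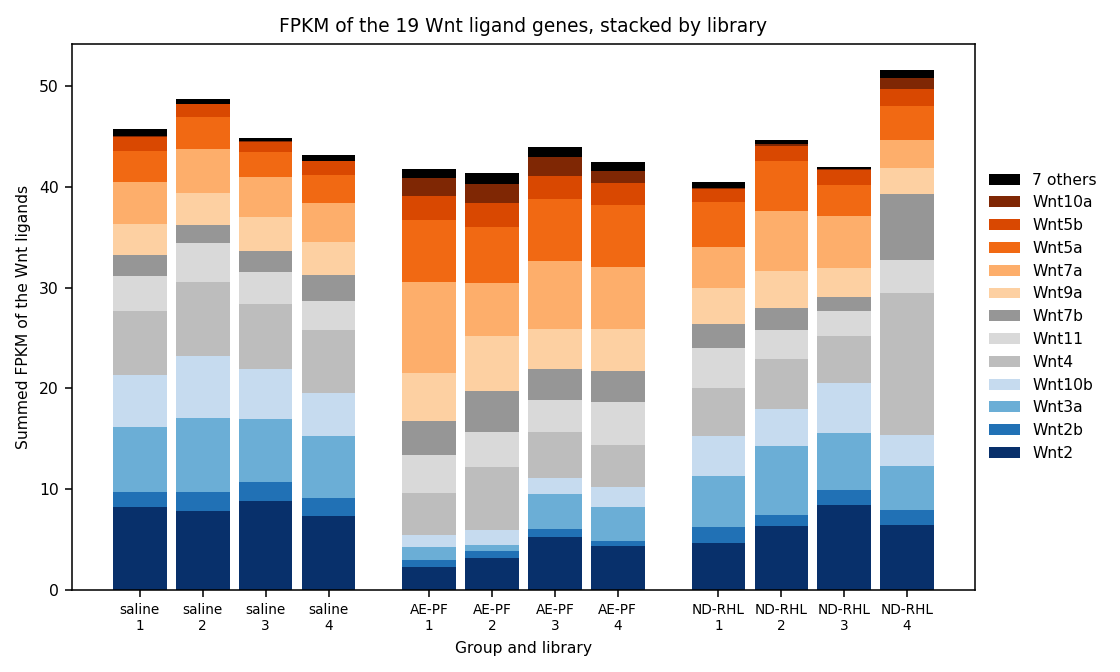
FPKM of the 19 Wnt ligands stacked for each of the 12 libraries. The totals lie between 40.5 and 51.6, and the segments of Wnt2, Wnt3a and Wnt10b are narrower in the AE-PF libraries while those of Wnt5a and Wnt7a are wider.

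The ligand genes hold 4 pairs that lie within 100 kb of each other (GRCm38, GENCODE). Wnt3a (chr11:59248033-59290752, minus strand) and Wnt9a (chr11:59306928-59333552, plus strand) are 16.2 kb apart and differed from saline in opposite directions in AE-PF lungs, at -1.38 and 0.39. Wnt6 (chr1:74771892-74785322) and Wnt10a (chr1:74791516-74804179), both on the plus strand and 6.19 kb apart, both had their highest group mean in AE-PF lungs. In the pair Wnt10b and Wnt1 on chromosome 15, 11.7 kb apart, Wnt1 was at most 0.0745 FPKM in any library. In the pair Wnt9b and Wnt3 on chromosome 11, 24.3 kb apart, both were too low to test.

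Of the 8 Frizzled receptors tested, 2 were higher and 4 lower in AE-PF than in saline lungs, also with equal FPKM totals and with quantile normalisation. Over all genes 26.4% were higher and 30.2% lower. Fzd1, whose gene lies at chr5.0:4753839.0-4758035.0 on the minus strand, had an FPKM of 27.3, 28.6, 24.7 and 27.01 in saline, 56.2, 53.6, 53.9 and 47.6 in AE-PF and 23.1, 25.5, 22.6 and 19.6 in ND-RHL libraries. Every AE-PF library was far above the 8 others, and saline and ND-RHL values overlapped. The log2 change was 0.95 ± 0.08 (SE, adjusted p = 4.96e-06) in AE-PF against saline and -1.18 ± 0.08 (SE, adjusted p = 1.05e-05) in ND-RHL against AE-PF. Fzd7 (chr1.0:59482424.0-59486955.0, plus strand) moved the other way. It had 16.2, 16.9, 15.5 and 17.3 in saline, 8.31, 9.43, 11.4 and 10.1 in AE-PF and 14.8, 14.4, 14.5 and 12.6 in ND-RHL libraries. The 3 groups did not overlap, with ND-RHL between AE-PF and saline. By limma the log2 change was -0.70 ± 0.08 (SE, adjusted p = 3.89e-05) in AE-PF against saline and 0.49 ± 0.08 (SE, adjusted p = 0.00105) in ND-RHL against AE-PF.

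Fzd6, which acts in planar cell polarity with Fzd3, averaged 10.4 ± 0.788 in saline, 12.4 ± 0.605 in AE-PF and 15.1 ± 0.686 in ND-RHL lungs (SD, n = 4). It was higher in AE-PF than in saline (0.24 ± 0.06 (SE, adjusted p = 0.00442)) and higher again in ND-RHL than in AE-PF (0.27 ± 0.06 (SE, adjusted p = 0.00437)), although with equal FPKM totals the latter had an adjusted p of 0.079. Its 3 groups did not overlap. Fzd3 averaged 1.71, 1.03 and 1.31 and was lower in AE-PF than in saline (-0.41 ± 0.07 (SE, adjusted p = 0.000677)). Fzd4, which also serves as the receptor of norrin in blood vessels, averaged 28.4, 22.5 and 32.3. It fell by 0.32 in AE-PF lungs (adjusted p = 0.00297) and was higher by 0.50 in ND-RHL against AE-PF lungs (adjusted p = 0.000443). Of 8 endothelial markers, 6 were lower and 1 was higher in AE-PF lungs, with summed FPKM of 861 to 959 in saline, 400.3 to 594 in AE-PF and 677 to 956 in ND-RHL, and their part in the Fzd4 values was not tested.

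Fzd5 averaged 5.99, 3.93 and 4.24 FPKM in saline, AE-PF and ND-RHL lungs. It was lower than saline in AE-PF (-0.53 ± 0.13 (SE, adjusted p = 0.0042)), and its difference between ND-RHL and AE-PF was 0.10 ± 0.13 (SE, adjusted p = 0.533). Fzd2 and Fzd8, the remaining tested receptors, did not pass in any comparison. Fzd2 averaged 10.8, 10.04 and 9.296, and its log2 difference in AE-PF against saline was -0.09 ± 0.09 (SE, adjusted p = 0.436). Fzd8 averaged 4.66, 4.28 and 4.21, with a difference of -0.10 ± 0.09 (SE, adjusted p = 0.352).

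Both LRP co-receptors were lower in AE-PF than in saline lungs, Lrp6 not so with equal FPKM totals. Of all genes tested, 30.2% were lower. Lrp5, also known for setting bone mass, had an FPKM of 19.4, 21.1, 19.7 and 18.4 in saline, 11.8, 11.9, 14.1 and 13.5 in AE-PF and 15.9, 16.7, 18.1 and 14.7 in ND-RHL libraries. The groups did not overlap, and ND-RHL lay between the others. This was a log2 change of -0.58 ± 0.07 (SE, adjusted p = 6.96e-05) in AE-PF against saline and 0.33 ± 0.07 (SE, adjusted p = 0.00544) in ND-RHL against AE-PF, the latter with an adjusted p of 0.0539 when totals were made equal. Lrp6, the co-receptor required in most tissues, had 15.4, 15.5, 14.5 and 15.8 in saline, 12.2, 12.3, 13.6 and 12.9 in AE-PF and 14.8, 14.3, 15.2 and 13.5 in ND-RHL libraries. AE-PF lay below saline in all libraries, while ND-RHL overlapped both. Lrp6 changed by -0.25 ± 0.05 (SE, adjusted p = 0.00154) in AE-PF against saline and by 0.17 ± 0.05 (SE, adjusted p = 0.0195) in ND-RHL against AE-PF. With equal FPKM totals neither passed (-0.12, adjusted p = 0.101, and 0.06, adjusted p = 0.424). The second was also lost without AE-PF library 1 (adjusted p = 0.0593), ND-RHL library 1 (0.0516) or ND-RHL library 3 (0.0576).

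The secreted Frizzled-related proteins held the largest change among the 31 genes. Sfrp1 (chr8.0:23411502.0-23449632.0, plus strand), a soluble protein with a Frizzled-like domain that binds Wnts, had an FPKM of 9.84, 7.76, 8.66 and 7.71 in saline, 168, 139, 105 and 91.8 in AE-PF and 15.1, 19.6, 10.2 and 16.003 in ND-RHL libraries. No values overlapped between the 3 groups. The AE-PF mean was 14.8 times the saline mean and 8.27 times the ND-RHL mean, and Sfrp1 went from rank 11 of the 45 genes by FPKM in saline to rank 1 in AE-PF and rank 6 in ND-RHL lungs. The log2 change was 3.71 ± 0.20 (SE, adjusted p = 7.55e-07) in AE-PF against saline and -2.96 ± 0.20 (SE, adjusted p = 1.05e-05) in ND-RHL against AE-PF. ND-RHL lungs were above saline by 0.74 ± 0.20 (SE, adjusted p = 0.0254). That last call was lost without saline library 2 (adjusted p = 0.0679), 3 (0.0515) or 4 (0.0618) and without ND-RHL library 1 (0.0523), 2 (0.0689) or 4 (0.0563).

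Sfrp2 (chr3.0:83766321.0-83774316.0, plus strand), a relative expressed in connective tissue, had 2.23, 1.103, 1.45 and 0.966 in saline, 5.81, 4.601, 6.81 and 6.16 in AE-PF and 3.55, 2.36, 1.99 and 3.42 in ND-RHL libraries. AE-PF exceeded the other libraries, whose values overlapped. By limma the log2 change was 1.51 ± 0.18 (SE, adjusted p = 4.42e-05) in AE-PF against saline and -0.85 ± 0.18 (SE, adjusted p = 0.00354) in ND-RHL against AE-PF. Against saline, ND-RHL was higher by 0.66 ± 0.18 (SE, adjusted p = 0.0254), and this was lost without saline library 2 (adjusted p = 0.0734), 3 (0.0504) or 4 (0.0673) and without ND-RHL library 1 (0.0654) or 4 (0.0628). The genes listed as fibrotic fibroblast markers, such as Spp1, Col1a1 and Postn, were also high in AE-PF lungs, where 7 of 7 tested were higher than in saline. Their summed FPKM was 272 to 316 in saline, 4405, 4210, 2444 and 2385 in AE-PF libraries 1 to 4 and 335 to 924 in ND-RHL. Spp1 alone gave 2776, 2546, 1413 and 1310 of the AE-PF sums, and 541 of the 924 in ND-RHL library 2. Sfrp1, like this sum, was higher in AE-PF libraries 1 and 2 than in 3 and 4, while Sfrp2 was lower in them. The part of fibrotic fibroblasts in the Sfrp1 and Sfrp2 values was not tested.

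Sfrp5, known from fat tissue, went the other way and varied within groups. It had 3.13, 1.11, 0.627 and 3.19 in saline, 0.0618, 0.583, 0.124 and 0.174 in AE-PF and 3.18, 0.228, 0.326 and 2.78 in ND-RHL libraries. Every AE-PF value was below every saline value, with ND-RHL spread over both. Sfrp5 changed by -1.19 ± 0.44 (SE, adjusted p = 0.039) in AE-PF against saline, and the difference of ND-RHL from AE-PF was 0.88 ± 0.44 (SE, adjusted p = 0.13). The first call was lost without saline library 1 (adjusted p = 0.105) or 4 (0.106) and without AE-PF library 1 (0.0856), 3 (0.0745) or 4 (0.0701). The summed FPKM of 6 adipocyte markers was 542, 156, 111 and 423 in saline, 4.70, 26.8, 6.43 and 13.3 in AE-PF and 733, 20.3, 87.2 and 280.4 in ND-RHL libraries. It was high in the libraries where Sfrp5 was high, and its part in the Sfrp5 values was not tested. Sfrp4, too low for the main test, had 0.906, 0.723, 0.641 and 0.9803 in saline, 0.351, 0.331, 0.368 and 0.569 in AE-PF and 1.88, 0.296, 0.555 and 1.09 in ND-RHL libraries. Its AE-PF values lay below all saline values.

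**Figure D3:**
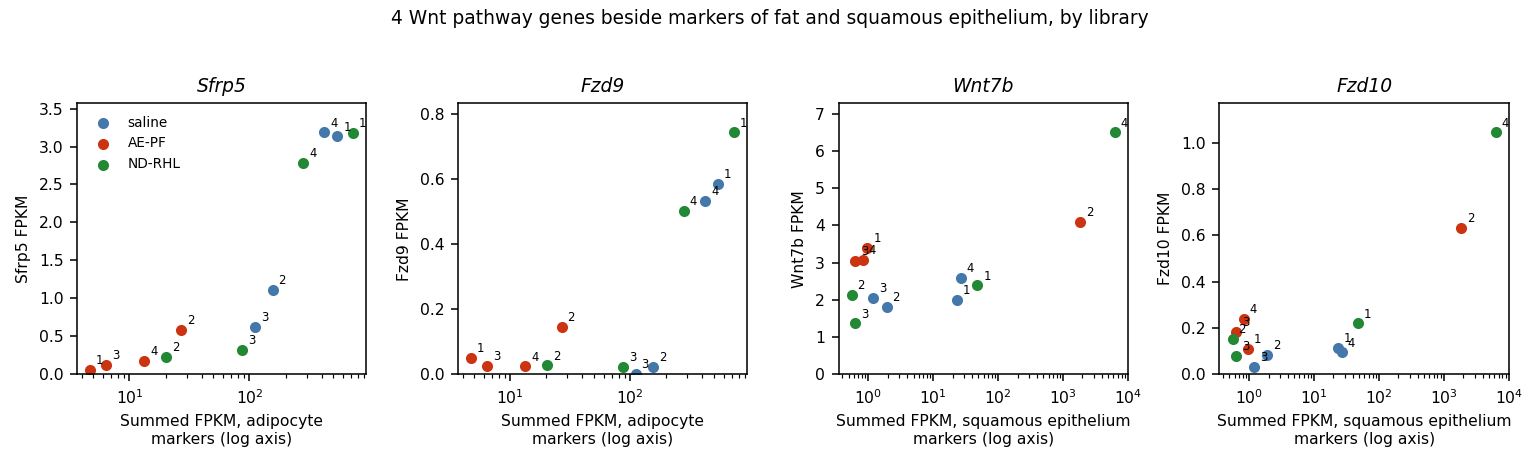
FPKM of Sfrp5 and Fzd9 against the summed FPKM of 6 adipocyte markers, and of Wnt7b and Fzd10 against that of 8 squamous epithelium markers, each point being 1 library coloured by group. Sfrp5 is highest in libraries with adipocyte sums of 280.4 or more, and Wnt7b and Fzd10 are highest in ND-RHL library 4, whose squamous sum is 6292.

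Dkk2, which binds LRP5 and LRP6, was higher in AE-PF lungs. Its FPKM was 0.511, 0.335, 0.308 and 0.545 in saline, 4.297, 1.69, 5.199 and 3.71 in AE-PF and 1.22, 0.986, 0.765 and 2.61 in ND-RHL libraries. AE-PF exceeded saline in every library, and ND-RHL library 4 lay above AE-PF library 2. This was a log2 change of 1.67 ± 0.26 (SE, adjusted p = 0.00028) in AE-PF against saline and -0.97 ± 0.26 (SE, adjusted p = 0.0123) in ND-RHL against AE-PF. Dkk3, a member of the family that does not act on the LRP co-receptors, had the highest mean of the 45 genes in saline lungs. It averaged 50.9 ± 3.801 in saline, 65.9 ± 12.7 in AE-PF and 48.3 ± 9.76 in ND-RHL (SD, n = 4). Dkk3 did not pass in AE-PF against saline (0.35 ± 0.15 (SE, adjusted p = 0.0638)) and was lower in ND-RHL lungs (-0.44 ± 0.15 (SE, adjusted p = 0.0336) against AE-PF). The first difference passed with equal FPKM totals (0.48, adjusted p = 0.016), in a fit of the 2 groups alone (adjusted p = 0.0467), without AE-PF library 4 (0.0294) and without ND-RHL library 1 (0.0306). The call in ND-RHL against AE-PF was lost without AE-PF library 1 (adjusted p = 0.085) or 2 (0.0868) and without ND-RHL library 2 (0.0703), 3 (0.0787) or 4 (0.0836). The same call was lost in a fit of the 2 groups alone (adjusted p = 0.0777), with sample weights (0.147), with quantile normalisation (0.0521) and with no filter (0.0706). With both libraries that stood apart left out it was -0.25 (adjusted p = 0.174).

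Rspo1 was the R-spondin with enough signal for the main test. It averaged 4.97 ± 0.773 in saline, 3.68 ± 0.5996 in AE-PF and 5.37 ± 0.314 in ND-RHL lungs (SD, n = 4). It was lower in AE-PF than in saline (-0.35 ± 0.11 (SE, adjusted p = 0.0147)), although not with equal FPKM totals (-0.24, adjusted p = 0.0674), and higher in ND-RHL than in AE-PF lungs (0.45 ± 0.11 (SE, adjusted p = 0.0061)).

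The 3 feedback and target genes were all lower in AE-PF than in saline lungs, although Lef1 did not pass with equal FPKM totals or quantile normalisation. Of all genes tested, 30.2% were lower. Axin2 (chr11.0:108920349.0-108950783.0, plus strand), a scaffold of the destruction complex and the usual readout of β-catenin signalling, had an FPKM of 8.801, 9.8003, 9.64 and 9.17 in saline, 3.59, 3.196, 5.33 and 5.04 in AE-PF and 6.57, 6.94, 7.68 and 5.62 in ND-RHL libraries. The groups did not overlap and ND-RHL lay between the other two. The log2 change was -0.99 ± 0.13 (SE, adjusted p = 7.89e-05) in AE-PF against saline and 0.56 ± 0.13 (SE, adjusted p = 0.00575) in ND-RHL against AE-PF. Nkd1 (chr8.0:88521354.0-88594884.0, plus strand), which binds dishevelled and restrains the pathway, had 40.7, 46.9, 38.5 and 39.4 in saline, 14.8, 13.7, 20.5 and 23.4 in AE-PF and 29.6, 30.9, 33.1 and 22.1 in ND-RHL libraries. All AE-PF and ND-RHL libraries were below all saline libraries, while ND-RHL library 4 was below AE-PF library 4. Nkd1 changed by -1.18 ± 0.17 (SE, adjusted p = 0.000131) in AE-PF against saline and by 0.66 ± 0.17 (SE, adjusted p = 0.00825) in ND-RHL against AE-PF.

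Lef1 (chr3.0:131110471.0-131224356.0, plus strand), a DNA-binding partner of β-catenin that is also expressed in T cells, was low. It had 0.903, 1.03, 1.02 and 1.01 in saline, 0.475, 0.346, 0.7598 and 0.6601 in AE-PF and 0.725, 1.0004, 1.02 and 1.56 in ND-RHL libraries. AE-PF lay below saline in every library, while ND-RHL library 1 lay below AE-PF library 3. Lef1 changed by -0.36 ± 0.12 (SE, adjusted p = 0.0272) in AE-PF against saline and by 0.41 ± 0.12 (SE, adjusted p = 0.0217) in ND-RHL against AE-PF. The first call was lost with quantile normalisation (adjusted p = 0.0962), with equal FPKM totals (0.0556), without saline library 2 (0.0592), 3 (0.0554) or 4 (0.0549) and without AE-PF library 1 (0.0661) or 2 (0.0749). The second was lost with quantile normalisation (0.231), without AE-PF library 1 (0.0578) or 2 (0.0586) and with both libraries that stood apart left out (0.23, adjusted p = 0.0982). Summed T cell markers ranged from 15.2 to 18.03 in saline, 11.2 to 39.7 in AE-PF and 34.4 to 71.4 in ND-RHL libraries, and their part in Lef1 was not tested.

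**Figure D4:**
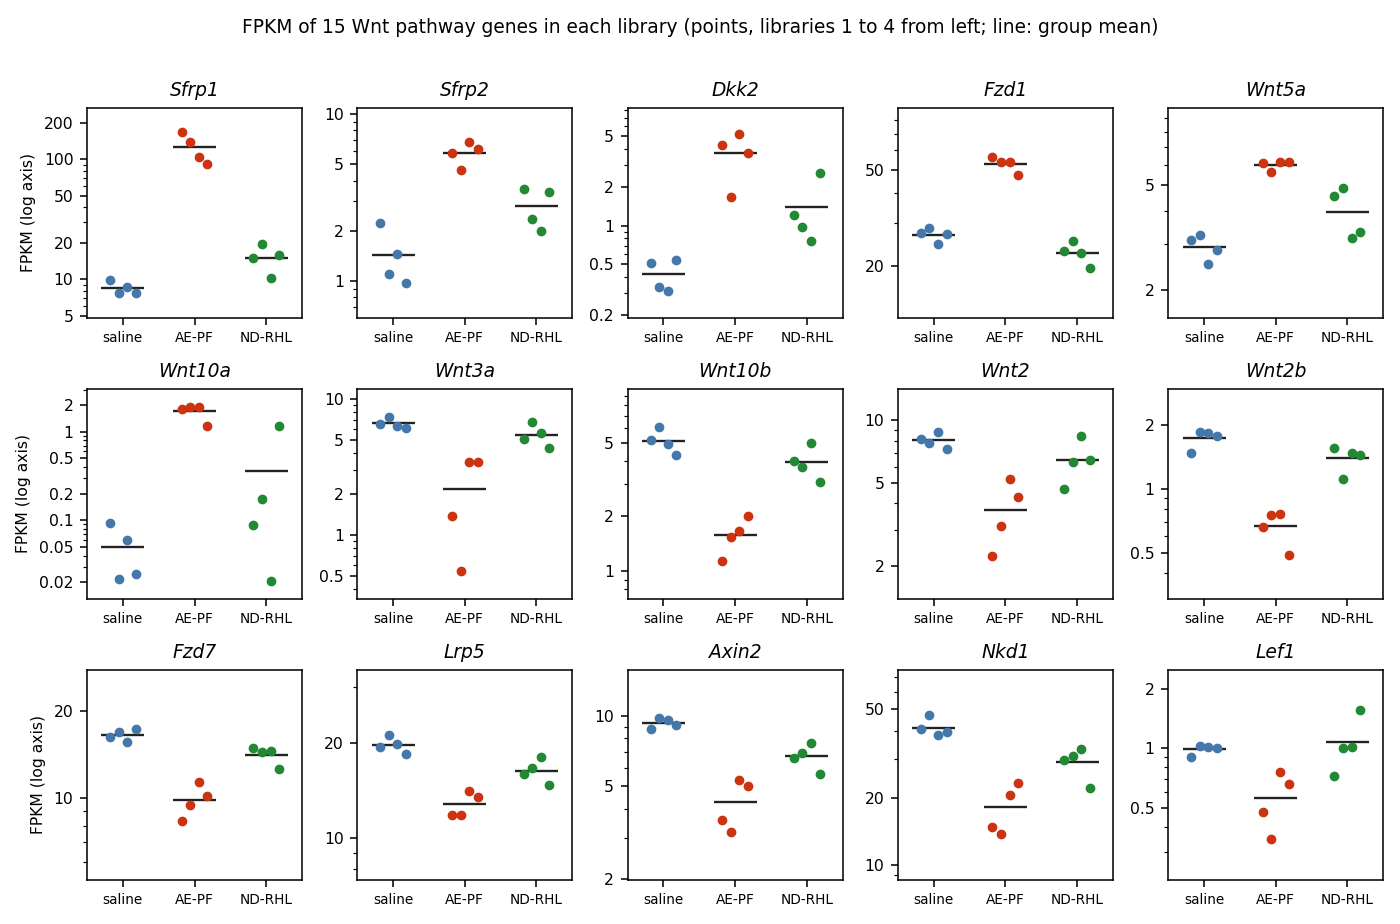
FPKM of 15 Wnt pathway genes in each library on a log axis, with the points being libraries 1 to 4 of a group and the line the group mean. AE-PF points stand above saline points for Sfrp1, Fzd1, Wnt5a and Wnt10a and below them for Wnt3a, Wnt10b, Axin2 and Nkd1.

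Within the AE-PF group, libraries 3 and 4 were the pair most alike and may not be independent. Libraries 1 and 2 were lower than libraries 3 and 4 in Wnt3a, Wnt2, Axin2, Nkd1 and Lef1. Markers of alveolar cells showed the same order, as did those of endothelial cells and T cells. The alveolar type 2 sum was 2802, 1560, 5160 and 4823 in AE-PF libraries 1 to 4, and that of 7 alveolar fibroblast markers was 290.3, 315, 494 and 435, against 1434 to 1633 in saline and 897 to 1434 in ND-RHL libraries. In AE-PF against saline, 8 of 8 alveolar type 2 markers and 7 of 7 alveolar fibroblast markers were lower. Of 8 alveolar type 1 markers 4 were lower and 1 was higher. In AE-PF libraries 1 to 4 the endothelial sum was 463, 400.3, 555 and 594 and the T cell sum 19.97, 11.2, 39.7 and 37.2. Sums of fibrotic fibroblast, smooth muscle and pericyte, mesothelial and cardiac muscle markers had the opposite order. The part of any of these cell types in the values of Wnt3a, Wnt2, Axin2, Nkd1 and Lef1 was not tested. Markers of monocytes and macrophages were higher in 7 of 7 and those of the cell cycle in 6 of 6.

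The 14 genes too low for the main test were Wnt1, Wnt3, Wnt6, Wnt8a, Wnt8b, Wnt9b, Wnt16, Fzd9, Fzd10, Sfrp4, Dkk1, Rspo2, Rspo3 and Rspo4. Rspo3, an R-spondin of blood vessels, had an FPKM of 0.747, 0.576, 0.401 and 0.594 in saline, 1.39, 2.3999, 0.688 and 0.823 in AE-PF and 0.587, 0.641, 0.334 and 0.819 in ND-RHL libraries, and the groups overlapped. Rspo4, known from nail development, had 0.545, 0.614, 0.356 and 0.774 in saline, 0.149, 0.0233, 0.299 and 0.2097 in AE-PF and 0.324, 0.287, 0.174 and 0.242 in ND-RHL libraries. Its AE-PF values lay below all saline values, and library 2 was near 0. Wnt6, a ligand of embryonic surface tissue, had 0.463, 0.295, 0.158 and 0.363 in saline, 0.67002, 0.707, 0.755 and 0.655 in AE-PF and 0.326, 0.282, 0.141 and 0.577 in ND-RHL libraries. All AE-PF libraries exceeded all others.

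A count-based test, limma-voom on whole fragments recovered from the FPKM values, could take in genes with at least 10 fragments in 4 libraries. It was added after the values had been seen, and it called 54.3% of 18013 genes in AE-PF against saline, 39.5% in ND-RHL against AE-PF and 19.5% in ND-RHL against saline. By it Rspo4 was lower in AE-PF than in saline lungs (log2 change -1.99 ± 0.52, adjusted p = 0.00647). Wnt6 was higher (1.19 ± 0.36, adjusted p = 0.0146), as was Rspo3 (1.04 ± 0.40, adjusted p = 0.0439). Wnt6 was the only 1 of these 3 with a call in ND-RHL against AE-PF, where it was lower by a log2 change of -1.22 (adjusted p = 0.0204). Sfrp4 (-0.998, adjusted p = 0.106), Fzd10 (1.61, adjusted p = 0.126), Fzd9 (-0.76, adjusted p = 0.703) and Rspo2 (-0.30, adjusted p = 0.651) did not pass in AE-PF against saline.

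Of the rest, Dkk1, the best known inhibitor of the LRP co-receptors, had 2, 3 and 3 fragments over the 4 libraries of saline, AE-PF and ND-RHL. Wnt1, the founding ligand of the family, had 3, 8 and 1, and Wnt3 had 11, 8 and 6. Wnt8b had 3, 4 and 2, and Wnt8a had 0, 2 and 2. Wnt16 had 18, 9 and 17 fragments and Wnt9b had 27, 41 and 16. These genes were too low for both the main and the count-based test, so whether they differed between groups was not tested. Fzd10 was at most 0.238 FPKM outside AE-PF library 2, at 0.63, and ND-RHL library 4, at 1.04, which are the libraries with squamous and skeletal muscle markers.

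Outside the 45 genes, 75 other genes of the pathway were listed by role, and 66 could be tested. Of these, 18 were higher and 29 lower in AE-PF than in saline lungs, 71.2% in all, with a median log2 change of -0.15, against 56.6% of all genes and an all-gene median of -0.03. In ND-RHL against AE-PF 22 were higher and 16 lower (57.6%, median 0.08), against 41.8% of all genes and a median of 0.06. In ND-RHL against saline 5 were higher and 7 lower (18.2%, median -0.03), against 21.9% and a median of 0.03. With equal FPKM totals the first split was 23 and 22 and the second was 17 and 19, and with quantile normalisation the second was 16 and 17 and the third 4 and 12. The calls over all genes moved with these splits. With equal totals they were 5376 higher and 3163 lower in the first comparison and 2359 and 3874 in the second. With quantile normalisation they were 2789 and 3223 in the second and 1474 and 1912 in the third.

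Among genes of Wnt secretion and extracellular inhibition, 5 of 12 were higher and 3 lower in AE-PF. Of all genes, 26.4% were higher and 30.2% lower. Wls, which carries Wnts to the cell surface, averaged 20.7 FPKM in saline, 30.4 in AE-PF and 25.1 in ND-RHL lungs, and rose by 0.53 in AE-PF (adjusted p = 0.000115). Tinagl1, a secreted matrix protein, averaged 45.3, 30.01 and 23.6. It fell by 0.58 in AE-PF against saline (adjusted p = 2.84e-05) and was lower again in ND-RHL, by a log2 change of -0.33 against AE-PF (adjusted p = 0.00215) and -0.91 against saline (adjusted p = 2.11e-05). Sost, a secreted blocker of LRP5 and LRP6 known from bone, averaged 3.17, 0.0835 and 1.03, and fell by 1.92 (adjusted p = 0.000149). It passed the filter through saline and ND-RHL library 1, where it was higher. Among co-receptors and genes of receptor turnover, 4 of 11 were higher and 5 lower, against the same 26.4% and 30.2% of all genes. Ror2, the co-receptor of Wnt5a, averaged 1.39 in saline, 4.68 in AE-PF and 1.41 in ND-RHL lungs. Its log2 change was 1.24 in AE-PF against saline (adjusted p = 2.01e-05) and -1.23 in ND-RHL against AE-PF (adjusted p = 7.14e-05). Ptk7, a co-receptor of cell polarity, averaged 18.1, 32.3 and 20.01 and rose by 0.80 in AE-PF (adjusted p = 5.8e-05). Reck, a membrane protein that helps Wnt7 ligands signal, averaged 21.9, 9.64 and 15.9 and fell by 1.11 in AE-PF (adjusted p = 2.01e-05).

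Of 10 planar cell polarity genes, 0 were higher and 7 lower in AE-PF than in saline lungs, against 2 higher and 7 lower with equal FPKM totals and 1 and 7 with quantile normalisation. The calls over all genes were 4003 higher and 4575 lower in the main run. They were 5376 and 3163 with equal FPKM totals and 4082 and 4377 with quantile normalisation. Over all genes 26.4% were higher and 30.2% lower. In ND-RHL against AE-PF, 6 were higher and 0 lower, against 24.3% and 17.4% of all genes, and in ND-RHL against saline 2 were higher and 2 lower. Celsr1, a cadherin of this system, averaged 5.47, 2.87 and 5.08 FPKM in saline, AE-PF and ND-RHL lungs, with a log2 change of -0.75 in AE-PF (adjusted p = 2.23e-05). Prickle2 averaged 17.2, 10.5 and 15.9 and fell by 0.68 (adjusted p = 0.000257). Scrib, a scaffold of cell polarity, averaged 13.03, 9.797 and 10.5 and fell by 0.38 (adjusted p = 0.000681). It had no call in ND-RHL against AE-PF (0.10, adjusted p = 0.28) and was below saline in ND-RHL lungs (-0.28, adjusted p = 0.0141). Of 26 genes of the destruction complex and β-catenin transcription, 5 were higher and 11 lower in AE-PF, but 7 and 5 with equal totals. The calls over all genes moved the same way with equal totals, as given above. Bcl9l, a co-activator of β-catenin, averaged 17.3, 10.6 and 12.5 and fell by 0.66 (adjusted p = 3.89e-05). Csnk1e, a kinase of the pathway, averaged 14.7, 10.3 and 13.1, with log2 changes of -0.48 in AE-PF against saline (adjusted p = 0.000149) and 0.32 in ND-RHL against AE-PF (adjusted p = 0.00373). Dvl1, a dishevelled protein that relays the signal from Frizzled, averaged 21.1, 15.5 and 15.1 and fell by 0.42 in AE-PF (adjusted p = 0.000276). It had no call in ND-RHL against AE-PF (-0.03, adjusted p = 0.714) and was below saline in ND-RHL lungs (-0.46, adjusted p = 0.00124).

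The 13 tested target genes outside the 45 did not move in 1 direction. In AE-PF against saline, 5 were lower (Rnf43, Znrf3, Tnfrsf19, Sp5 and Bambi), 5 were higher (Myc, Ccnd1, Nkd2, Ccn4 and Cd44) and Tcf7, Notum and Apcdd1 did not pass. Of all genes, 30.2% were lower and 26.4% higher. Ccn4, a secreted matrix protein, averaged 2.46 FPKM in saline, 17.3 in AE-PF and 2.55 in ND-RHL lungs and rose by 2.34 in AE-PF (adjusted p = 7.33e-06). Bambi, a pseudoreceptor that restrains TGF-β signalling, averaged 5.43, 1.90 and 4.20 and fell by 1.15 (adjusted p = 1.21e-05). Cd44, the hyaluronic acid receptor, averaged 28.0, 46.3 and 32.0 and rose by 0.72 (adjusted p = 0.00042).

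Of the 8 of the 45 genes called between ND-RHL and saline lungs, Fzd6 was called with each alternative run, at log2 changes of 0.47 to 0.55. Its main value was 0.51 ± 0.06 (SE, adjusted p = 0.000394). The other 7 were lost in at least 1 alternative each. Axin2, Nkd1, Lrp5, Fzd3 and Fzd5 were lower than saline by log2 changes of -0.43, -0.51, -0.26, -0.23 and -0.42 (adjusted p = 0.0346, 0.0467, 0.0313, 0.0459 and 0.0348). With equal FPKM totals none of these 5 passed (adjusted p = 0.0514 to 0.0718). With the replicate number as a block Nkd1 (adjusted p = 0.0874) and Fzd3 (0.0839) did not pass, and Fzd1 did (-0.24, adjusted p = 0.0362). With AE-PF 2 and ND-RHL 4 both left out, Sfrp1 (0.71, adjusted p = 0.0531), Nkd1 (-0.39, adjusted p = 0.0568), Lrp5 (-0.21, adjusted p = 0.0573) and Fzd3 (-0.20, adjusted p = 0.0927) did not pass. Dkk2 (0.48, adjusted p = 0.0189) and Wnt5a (0.39, adjusted p = 0.0337) then passed, as did Wnt4. Without saline library 2 only 1 of the 31 genes was called, and without saline library 3 or 4, or ND-RHL library 1, 2 were. Without saline library 1, or ND-RHL library 2 or 4, 3 were called. These counts stand without the share of all genes called in the same runs, so the drop cannot be read as particular to these genes. In AE-PF against saline, leaving out saline library 2 took the calls over all genes from 4003 higher and 4575 lower to 3643 and 4095. A p that misses the threshold does not show that ND-RHL and saline lungs had equal levels of the other 23 genes.

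Exons of 9 of the 45 genes overlap a gene on the opposite strand: Axin2, Fzd5, Fzd6, Lef1, Rspo3, Sfrp2, Wnt11, Wnt5a and Wnt7b. No source used here gives the strand setting of the counting, so the values of these 9 are less certain than the others.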

How the data were processed

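Polyadenylated RNA of mouse lung was sequenced in 12 libraries, 4 per group, with groups and replicate numbers taken from the sample titles. Gene expression was deposited by the authors as FPKM (fragments per kilobase of gene, scaled to the library's total), in 1 table of 35599 genes. Per the submitters' processing notes, the tools were STAR 2.7.9a, Subread 2.0.1, featureCounts, DESeq2 1.30.1, Trim Galore 0.6.6 and FastQC, with the builds GRCm38 and mm10. Strand and multimapping settings: not given in the sources used here.

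From the deposited FPKM values, whole fragments were recovered for 100% of the 35599 genes (tolerance 0.0001 fragments), with 16152379 to 21667129 fragments per library. An FPKM of 0.139 to 0.186 corresponds to 3 fragments for a gene of 1 kb, which covers counting error only. The 15164 genes that reached 1 FPKM in 4 or more libraries entered 1 limma fit (version 3.58.1, R 4.3.3, trended variance) of log2(FPKM + 1) over all 12 libraries. It left 9 residual degrees of freedom, and 2-sided p-values were adjusted by Benjamini-Hochberg. Gene positions came from the GENCODE annotation of GRCm38 by identifier, and promoters from RefSeq.

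The genes, the pathway and marker lists and the alternatives were chosen with earlier results of these data known. Values in every library are given for genes with an adjusted p under 0.05 and at least 1.5-fold in AE-PF against saline or ND-RHL against AE-PF, for Axin2, Lef1, Nkd1, Lrp5 and Lrp6, and for untested genes whose mean reached 0.5 FPKM in any group. For others called, group means are given. Wnt4, Wnt7b, Fzd10 and the marker sums were added after their values were seen. Up to 3 genes with the smallest p in AE-PF against saline were named per pathway list, and the 3 genes with the highest Pearson correlation for each of the 2 genes with the smallest p. Same-numbered libraries had correlations of their deviations from the group means of 0.397, 0.188, 0.114 and 0.173 between saline and ND-RHL, while the pairs with AE-PF ranged from -0.387 to 0.339. The titles give the numbers and the labels state no shared animal or day. Alternatives covered the pseudocount, the filter, scaling, sample weights, a replicate block, recovered counts and left-out libraries.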

Additional observations from a re-analysis of the deposited data

Results flagged for a closer look

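In the 24 genes with values given for every library, 72 sets of 4 libraries were searched for a library far from the other 3 (Dixon's ratio of the gap to the range), which chance flags in about 1 in 20 sets. The search found 7, of which those of Wnt4 come from a gene added after its values were seen. Wnt10a gave 2 of them: AE-PF library 4, at 1.16413 FPKM with the others at 1.83 to 1.91, and ND-RHL library 4, at 1.16467 with the next at 0.176 and the lowest at 0.0209. ND-RHL library 4 was also the library with the highest squamous marker sum, whose part in the value was not tested. Wnt2b in saline library 1 was 1.47215, with the others at 1.78 to 1.84. Wnt5a in AE-PF library 2 was 5.62404, with the others at 6.08 to 6.16. Sfrp4 in AE-PF library 4 was 0.56851, with the others at 0.331 to 0.368. Wnt4 in ND-RHL library 4 was 14.1184, with the others at 4.68 to 4.96, and in saline library 2 it was 7.39799, with the others at 6.25 to 6.43. Saline library 1 was still above all AE-PF libraries in Wnt2b, and AE-PF library 2 was still above all saline and ND-RHL libraries in Wnt5a.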

How the results depend on the processing

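No direction of the 31 genes' calls reversed under an alternative. With FPKM of at least 5 required in 4 libraries, fewer genes were tested, and 15 were called in AE-PF against saline, 15 in ND-RHL against AE-PF, and 25 of the other pathway genes in ND-RHL against AE-PF. In ND-RHL against saline the count of 8 became 1 with no filter and 3 with equal FPKM totals (3 higher and 0 lower), and the cause was not tested. Leaving out 1 library at a time gave 23 to 27 genes in AE-PF against saline, 19 to 24 in ND-RHL against AE-PF and 1 to 9 in ND-RHL against saline. For the other pathway genes the ranges were 40 to 48, 31 to 42 and 9 to 16. In AE-PF against saline and in ND-RHL against AE-PF, the calls over all genes also moved with the library left out. With AE-PF 2 and ND-RHL 4 left out together, the counts were 27, 21 and 7. Same-numbered saline and ND-RHL libraries all had positive correlations, but some libraries of unequal number correlated more. Saline 2 with ND-RHL 3 had 0.316 and saline 3 with ND-RHL 2 had 0.275. The correlations thus do not show that equal numbers were matched. With the replicate number as a block, 26, 23 and 7 of the 31 genes and 46, 36 and 14 of the other pathway genes were called. The block changed the calls of Nkd1, Fzd3 and Fzd1 in ND-RHL against saline and of Dkk3 in AE-PF against saline (adjusted p = 0.0444), and no other call among the 31 genes. Over single genes and alternatives, 17 values lost their call and 13 gained one in AE-PF against saline, 31 and 5 in ND-RHL against AE-PF, and 69 and 25 in ND-RHL against saline. In AE-PF against saline the losses were in 4 of 25 genes, Lef1, Sfrp5, Lrp6 and Rspo1. Depth limits the genes under 10 fragments per library, such as Dkk1, Wnt1 and Wnt8a.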

Other observations

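The genes whose log2 values followed those of Sfrp1 most closely over the 12 libraries were Mmp14 (Pearson r = 0.996), a membrane matrix protease, Fn1 (0.995), the matrix protein fibronectin, and Timp1 (0.995), an inhibitor of matrix proteases. Mmp14 averaged 15.5 FPKM in saline, 88.7 in AE-PF and 24.3 in ND-RHL lungs, Fn1 averaged 45.4, 699 and 97.4, and Timp1 averaged 6.78, 177 and 13.2. For Fzd1 they were Nlgn2 (0.992), Furin (0.982) and Plppr3 (0.978). These values describe 12 libraries that fall into 3 groups and carry no test.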
